A study of Mus musculus with 18 samples.

Results

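Genes that encode miRNAs were examined here as the target part of chimeric reads from cultured mouse keratinocytes. A chimeric read joins a miRNA, the ligated part, to the RNA it was ligated to in the Argonaute 2 precipitate, the target part. A read was counted where the midpoint of its target part lay in an mm10 RefSeq gene of biotype miRNA. This held for 11206 of 1153545 chimeric reads (0.971%, exact Clopper-Pearson 95% interval 0.954 to 0.990), on 366 of 1228 such genes. In 6812 of them (60.8%, 59.9 to 61.7) the ligated miRNA was itself a product of that gene; these are called own-locus reads. In the other 4394 a miRNA from another gene was joined to it.

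The 18 libraries fell into 2 sets, and all cultures were cross-linked with UV light (300 mJ/cm2, 254 nm). Set 1 had 6 libraries of control keratinocytes that carry only K14-Cre, a recombinase driven by the keratin 14 promoter of basal keratinocytes, and 3 of keratinocytes with a double knockout (DKO) of the miR-200 family. Set 2 had 3 libraries of keratinocytes with an inducible miR-200 construct left without inducer, called uninduced, 3 of the same kind of cells given 3 ug/ml doxycycline for 24 hours, called induced, and 3 of DKO cells. Each library came from 1 culture dish; the labels do not say whether dishes came from separate animals or clones. The deposited data pool the libraries of each group, so a group is 1 pool with no spread between libraries. Intervals therefore cover counting error only, no test between groups was possible, and PCR reads are not independent molecules.

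miRNAs are made from a hairpin in a longer transcript. Drosha frees the hairpin in the nucleus, Dicer cuts off its loop in the cytoplasm, and 1 strand of the remaining duplex, the 5p or the 3p arm, is loaded into an Argonaute protein, where its seed (bases 2 to 8) pairs with target RNAs. The miR-200 family comes from a cluster of Mir200b, Mir200a and Mir429 and a cluster of Mir200c and Mir141, and is known for keeping epithelial cells epithelial; miR-203, miR-205 and miR-31 are abundant in epidermis, and miR-21 in many cultured and wounded epithelia.

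The hairpins below show where the target part lay in own-locus reads. Each is the RefSeq hairpin (GRCm38.p6, the mm10 assembly), 5′ to 3′, with the commonest target part of own-locus reads in capitals. They were chosen because they show 3 of the arrangements found. In Mir21a, Mir18 and Mir501 the target part runs from the miRNA to the end of the hairpin's other arm. In Mirlet7a-1 and Mirlet7f-2 it stops in the loop, and in Mir31 it is the other arm alone. A further arrangement, with the same arm as target part, is not printed (406 own-locus reads, against 442 with the other arm). Mir7068 is added because almost all reads of its miRNA were own-locus reads.
Mir21a, chr11:86584067-86584158, minus strand: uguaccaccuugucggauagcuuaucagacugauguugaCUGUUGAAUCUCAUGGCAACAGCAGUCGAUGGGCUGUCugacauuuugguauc
Mir18, chr14:115043851-115043946, plus strand: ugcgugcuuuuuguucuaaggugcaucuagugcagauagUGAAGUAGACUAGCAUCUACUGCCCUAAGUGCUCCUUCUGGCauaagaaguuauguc
Mir501, chrX:7241243-7241351, minus strand: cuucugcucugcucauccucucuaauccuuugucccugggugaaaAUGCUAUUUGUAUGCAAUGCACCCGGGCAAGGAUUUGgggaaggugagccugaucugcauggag
Mirlet7a-1, chr13:48538179-48538272, minus strand: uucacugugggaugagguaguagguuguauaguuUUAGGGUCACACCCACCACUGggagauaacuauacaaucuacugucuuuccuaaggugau
Mirlet7f-2, chrX:151912346-151912428, plus strand: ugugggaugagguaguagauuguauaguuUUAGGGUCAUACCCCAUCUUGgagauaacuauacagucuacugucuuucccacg
Mir31, chr4:88910557-88910662, minus strand: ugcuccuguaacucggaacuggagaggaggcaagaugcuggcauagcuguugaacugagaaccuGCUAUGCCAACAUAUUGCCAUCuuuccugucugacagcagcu
Mir7068, chr8:72470016-72470089, minus strand: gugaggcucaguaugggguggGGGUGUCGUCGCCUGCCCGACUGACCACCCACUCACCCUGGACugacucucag

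In the reads of other miRNAs the target part was mostly a mature miRNA. The first 3 pairs below are among those with the most reads; the last 2 have fewer and were chosen, after their values were seen, for their longer complementary runs. Other pairs with as many reads or more, where both sequences are in the table, have runs of 3 to 6 bases and are not printed. Each sequence is the RefSeq mature miRNA, 5′ to 3′, ligated miRNA first, with the longest run of Watson-Crick complementarity to its partner in capitals.
miR-183-5p: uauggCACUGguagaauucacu
miR-27a-3p: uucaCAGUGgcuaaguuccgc
miR-21a-5p: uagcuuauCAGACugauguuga
miR-141-3p: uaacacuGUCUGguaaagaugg
miR-21a-5p: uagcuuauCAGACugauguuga
miR-429-3p: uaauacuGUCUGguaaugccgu
miR-96-5p: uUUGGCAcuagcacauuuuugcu
miR-31-3p: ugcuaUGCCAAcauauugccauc
miR-182-5p: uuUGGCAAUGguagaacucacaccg
miR-23a-3p: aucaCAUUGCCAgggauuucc
A run as long as that of the first 3 pairs (5 bases) is common. Among all 1674 distinct mature sequences in the table, 23.5% hold a run of 5 or more with miR-183-5p and 23.1% with miR-21a-5p. The run of 6 between miR-96-5p and miR-31-3p takes in bases 2 to 7 of miR-96-5p, and 6.09% of mature sequences have one as long. miR-182-5p and miR-23a-3p share a run of 8 (bases 3 to 10 of miR-182-5p), which 0.597% of mature sequences reach. With G-U pairs allowed, miR-21a-5p pairs with both miR-141-3p and miR-429-3p over a run of 9 from its base 5, which 2.39% of mature sequences reach. By the same rule miR-183-5p and miR-27a-3p stay at a run of 5, which 84.3% reach. miR-96-5p and miR-31-3p stay at 6, which 59.5% reach. miR-182-5p and miR-23a-3p come to 10, which 0.836% reach. These runs describe letters, not binding.

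The pools held 48662 (set 1 DKO) to 419117 (set 2 induced) chimeric reads. As a check of the cells, the 10 keratinocyte markers listed together held 0.260% to 0.496% of a pool. Krt15 had only 1 read in all, and the next lowest, Itgb4, had 128. The immune markers (Ptprc, Cd74, Cd3e, Lyz2) had 1 read in all, the endothelial markers at most 9 in a pool and the melanocyte markers at most 4. The fibroblast markers had 22 reads in all, every one on Pdgfra. Chimeric reads record ligation to a miRNA and not the level of an RNA, so a gene without reads may still be expressed.

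Reads on miRNA genes made up 1.51% (1.45 to 1.57) of the set 1 control pool, 1.11% (1.01 to 1.20) of the set 1 DKO pool, 0.963% of the uninduced pool, 1.28% of the set 2 DKO pool and 0.598% of the induced pool. The DKO pool was thus below its control in set 1 and above it in set 2. The ratio of DKO to control was 0.731 (conditional exact 95% interval 0.665 to 0.803) in set 1 and 1.33 (1.26 to 1.40) in set 2. The ratio of induced to uninduced was 0.621 (0.589 to 0.655). The value of set 1 changed with the way of counting. With each combination of position, strand and miRNA counted once, its ratio was 0.981 (0.866 to 1.11). Among target parts of 20 to 24 bases alone it was 1.08 (0.920 to 1.27). Own-locus reads per combination were 2.91 in set 1 control and 1.8 in set 1 DKO, the smaller pool. In set 2 they did not rise with pool size: 3.32 in DKO, the smallest pool, 3.25 in uninduced and 2.99 in induced, the largest. The part of pool size in this change was not tested. The sets also differ in sequencing run, so the set and the run cannot be told apart.

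**Figure D1:**
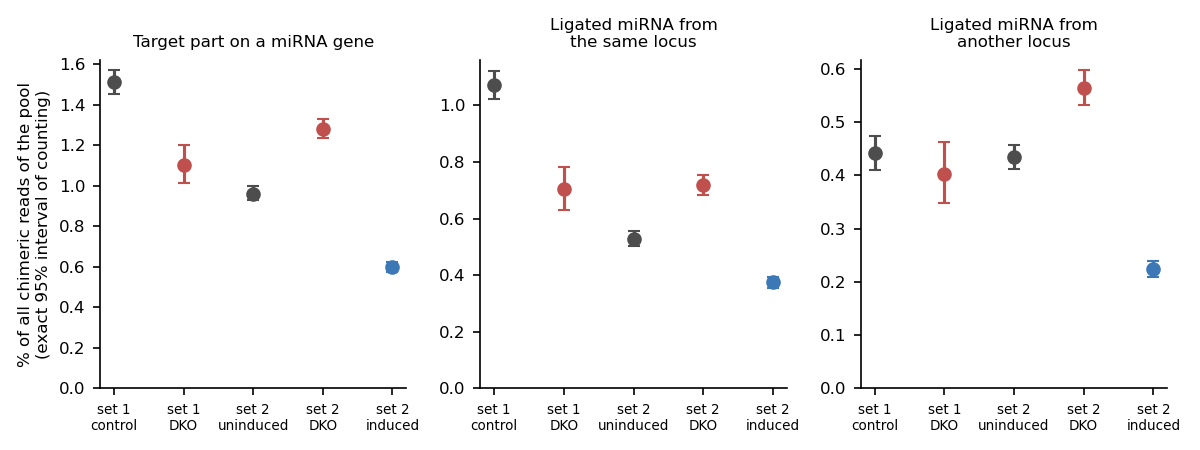
Percentage of all chimeric reads of each pool whose target part lay on a miRNA gene (left), split into reads whose ligated miRNA came from the same gene (middle) and from another gene (right). Points are pools and bars are exact 95% intervals of counting error; the DKO pool (red) lies below its control in set 1 and above it in set 2, and the induced pool is lowest in each panel.

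The target part lay on the strand of the gene in 10339 of the 10349 reads on genes whose strand is in the table (99.9%). Reads were concentrated in the hairpins themselves: per base they were 16.6 times as dense inside miRNA genes as in the 100 bases on either side (11206 reads against 1585), and by pool between 9.71 (set 1 control) and 40.3 times (set 2 DKO). The flanks were not free of miRNA products. Of the 1585 flanking reads 899 (56.7%) had a ligated miRNA from the adjacent gene, and 713 started directly after it. This share was 89.7% in the set 1 control pool and 80.9% in set 1 DKO, against 28.8% in uninduced, 39.5% in set 2 DKO and 32.4% in induced. Reads that started directly after their miRNA were, for example, 24 of 30 reads of miR-17-3p beside Mir17 and 24 of 25 of let-7i-3p beside Mirlet7i. A 3p arm lies at the end of its hairpin, so reads that continue past it fall outside the gene and are not among the 11206. The largest group of flanking reads had another character: 301 lay beside Mir5114, inside Scd2, a stearoyl-CoA desaturase gene, and were led by miR-200c-3p (89), miR-200b-3p (77) and miR-429-3p (35).

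Own-locus reads kept close to 1 arrangement. In 5404 of 6812 (79.3%, 78.3 to 80.3) the target part started within 2 bases of the base that follows the ligated miRNA in the hairpin, and in 5127 exactly at that base. Such reads are said here to run on, since miRNA and target part together are an uninterrupted stretch of the hairpin. The ligated arm was the 5p arm in 95.3% of them. The rule of counting bears on this share. Reads that continue from an arm at the end of the hairpin fall outside the gene. The 713 flanking reads that started directly after their miRNA are not included, so no preference between arms can be read from this share. In 406 own-locus reads (5.96%) the target part was the same arm as the ligated miRNA, in 442 (6.49%) it was the other arm, in 240 it lay elsewhere in the hairpin, and in 320 the arm position was not in the table. None lay on the opposite strand. A read through an uncut hairpin and a ligation of 2 adjoining pieces leave the same positions and cannot be told apart here.

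**Figure D2:**
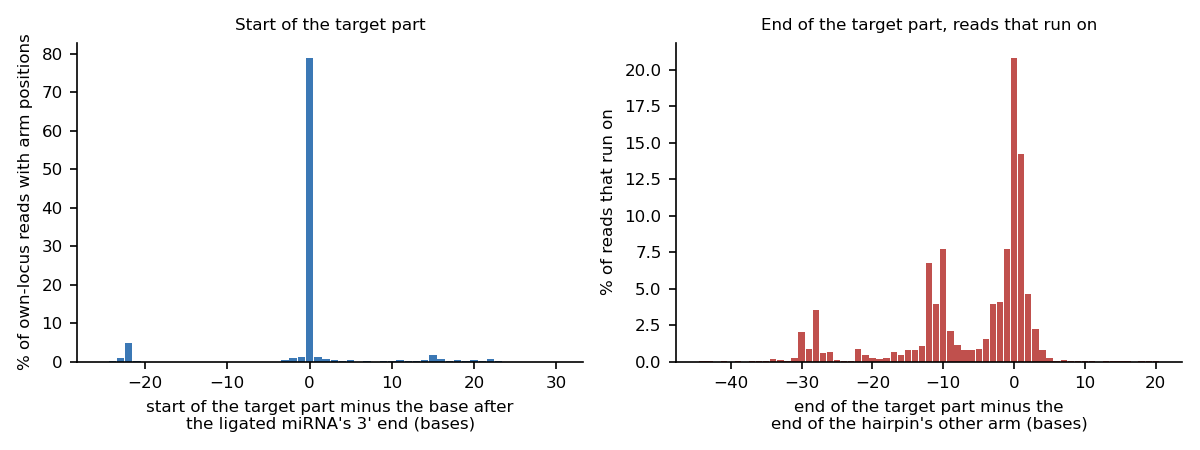
Own-locus reads of all pools: distance from the base after the ligated miRNA to the start of the target part (left, percentage of own-locus reads with listed arm positions), and, for reads that run on, distance from the end of the hairpin's other arm to the end of the target part (right). The left panel has 1 tall bar at 0 and a small one near -22, the same arm; the right panel has a tall group around 0, the end of the other arm, and smaller groups near -10 and -28.

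Of the 5120 reads that run on in hairpins with both arms listed, 2636 (51.5%) ended within 2 bases of the end of the other arm. In the pathway described above Drosha makes that end, which was not examined for each gene. Another 44.6% ended earlier and 3.96% later. The end differed by gene. In Mir183, Mir501, Mir182 and Mir20a at least 86.1% ended within 2 bases of that point. Counted from that point, with negative values before it, they ended at a median of -28 bases in Mirlet7f-2 and Mirlet7f-1, -26 in Mirlet7a-1 and -22 in Mir16-2, in or near the loop. In Mir7068, Mirlet7c-2 and Mirlet7b the medians were -10, -12 and -13.5 bases. The protocol cuts RNA with RNase A and RNase T1 before precipitation; the part of that digestion in these ends was not tested.

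The share of own-locus reads that run on was 88.3% in the set 1 control pool, 85.4% in the set 1 DKO pool, 69.9% in the uninduced pool, 80.6% in the set 2 DKO pool and 76.9% in the induced pool. Reads with the other arm as target part went the opposite way, from 0.866% in the set 1 control pool and 1.17% in the set 1 DKO pool to 3.25% in the set 2 DKO pool, 10.1% in the induced pool and 13.0% in the uninduced pool. For the share that run on, the DKO pool lay above its control in set 2. The intervals there were apart, 78.50 to 82.55 in DKO and 67.61 to 72.08 in uninduced. In set 1 the DKO value was the lower, but the intervals overlapped, 81.18 to 88.95 in DKO and 86.67 to 89.76 in control. An opposite direction between the sets can therefore not be read from this share.

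Mir21a, which gives miR-21 and lies within Vmp1, led the own-locus reads with 1757 (25.8%). By pool it had 388 reads in set 1 control, 68 in set 1 DKO, 439 in uninduced, 463 in set 2 DKO and 399 in induced. With 1448 running on and 276 with a second copy of the same arm, it supplied most of the same-arm reads as well. Counting each combination of position, strand and miRNA once lowered the share of Mir21a to 7.64% of own-locus reads, although it remained first; up to 121 different barcodes stood at 1 combination of Mir21a in a pool. miR-21a-5p is among the commonest ligated miRNAs, and its own-locus reads were 2.15% of its 81663 chimeric reads.

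Mir7068 lies within Cherp, a gene of calcium homeostasis. It had 658 own-locus reads, with 214 in set 1 control, 43 in set 1 DKO, 121 in uninduced, 171 in set 2 DKO and 109 in induced, and 646 of the 652 chimeric reads of miR-7068-5p in the whole data (99.1%, 98.0 to 99.7) were of this kind. In each pool the share was between 98.1% and 100%. miR-27a-5p (85.5% of 76 reads), miR-3069-5p (85.7% of 42), miR-6948-5p (68.8% of 32) and miR-3535 (58.6% of 111) also had most of their reads on their own gene. For miR-501-5p it was 51.0% of 363 (45.7 to 56.2), and by pool 50.0%, 33.3%, 60.4%, 34.4% and 50.0%, in the order set 1 control, set 1 DKO, uninduced, set 2 DKO, induced. Among the 40 miRNAs with at least 20 own-locus reads these 6 are the ones above 50%, and 25 were under 3%.

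The let-7 genes came next by number, with 271 own-locus reads on Mirlet7a-1, 247 on Mirlet7c-2, 213 on Mirlet7f-2 and 162 on Mirlet7b. let-7 miRNAs are kept low in stem cells by Lin28 proteins and are abundant in differentiated cells. The genes of the miR-183 cluster, known from sensory cells and epithelia, had 258 (Mir183), 172 (Mir182) and 106 (Mir96), all inside Mirc35hg. Mir18 of the miR-17-92 cluster had 205, Mir501 within Clcn5 had 186, Mir32 within Tmem245 104, Mir20a 95, Mir106b within Mcm7 93, Mir425 within Dalrd3 85, Mir27a 76 and Mir224 within Gabre 60. The pools were not alike in this order. Mir18 had 100 own-locus reads in set 1 control, 9 in set 1 DKO, 22 in uninduced, 44 in set 2 DKO and 30 in induced. Mir183 had 28, 13, 90, 26 and 101 in the same order of pools, and Mir501 15, 3, 85, 21 and 62. These are numbers of reads, and the pools differ in size.

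Mir31 stood apart from the other leading genes. Of the 232 own-locus reads of miR-31-5p, 137 had the other arm as target part and 76 the same arm, and 5 ran on. The commonest target part was positions 65 to 86 of the hairpin, 91 reads, while miR-31-5p itself lies at 28 to 49. Mir34a, a target of p53, had 40 of 71 reads on the other arm, and Mir182 29 of 172. Reads of miR-31-5p on its own gene numbered 12 in set 1 control, 1 in set 1 DKO, 102 in uninduced, 43 in set 2 DKO and 74 in induced, which is 0.182%, 0.0413%, 0.294%, 0.252% and 0.156% of all its reads.

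As a share of a miRNA's chimeric reads, own-locus reads were higher in the set 1 control pool than in the other 4 for several genes. For miR-21a-5p it was 9.65% there against 4.38% (set 1 DKO), 1.65% (uninduced), 2.87% (set 2 DKO) and 1.19% (induced). For miR-18a-5p it was 19.3% against 5.11%, 1.13%, 3.22% and 1.14%, for let-7c-5p on Mirlet7c-2 8.37% against 2.68%, 1.34%, 1.58% and 0.923%, and for let-7b-5p 6.26% against 1.21%, 0.415%, 2.20% and 0.487%. miR-183-5p showed a narrower range, 2.10% against 2.95%, 1.56%, 1.02% and 1.42%. In set 1 some reads carry a mark in their names, and each of those has a target part of 20 to 24 bases. Without them the set 1 control values were 9.18% for miR-21a-5p, 20.7% for miR-18a-5p and 8.44% for let-7c-5p, while let-7f-5p on Mirlet7f-2 went from 7.54% to 1.23%.

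The 4394 reads of other miRNAs had a different shape. Their target part had a median length of 22 bases, against 38 for own-locus reads and 38 for all chimeric reads, and 84.3% had 20 to 24 bases, against 8.95% of all reads. The deposited target parts begin at 20 bases, so a mature miRNA is close to the shortest target part the files can hold. In set 1, 614 of the 713 such reads of the control pool and 129 of the 196 of the DKO pool were among those with a mark in their names. In set 1, 99 and 67 were thus left without them, and statements on these reads rest there on the short target parts.

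**Figure D3:**
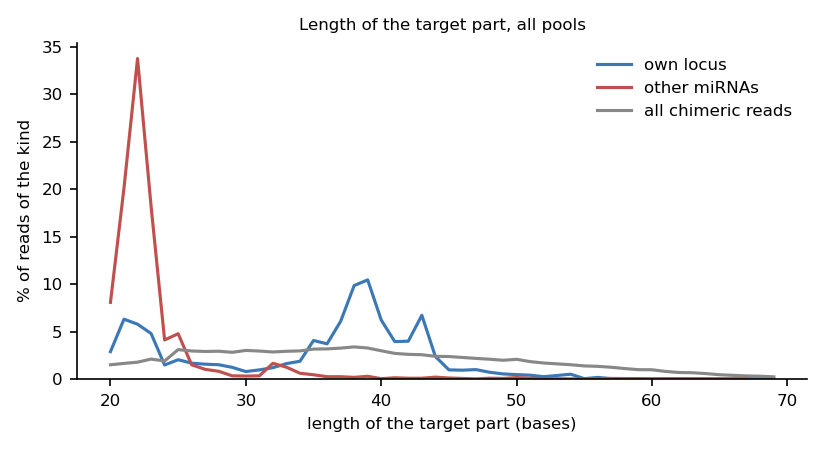
Length of the target part in bases for own-locus reads, reads of other miRNAs on miRNA genes and all chimeric reads, as percentages of each kind over all pools. Reads of other miRNAs peak at 22 bases, own-locus reads around 38 with a small group near 21, and all reads spread from 20 upward with no narrow peak.

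Where both ends could be compared with listed arms, the target part was a mature arm, within 2 bases at the start and 3 at the end, in 3259 of 3757 reads (86.7%, 85.6 to 87.8). These reads join 2 mature miRNAs. They covered 164 arms, 51 of them with at least 10 reads, and 1183 pairs, with 1552 reads on 5p and 1648 on 3p arms. In 3149 the miRNAs were unrelated, that is, of different number and seed and from genes over 10 kb apart. Over all 4394 reads of other miRNAs, 256 joined relatives, with a shared number or seed, and 87 joined neighbours within 10 kb.

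miR-27a-3p was the commonest mature arm in the target part, with 414 reads from 65 miRNAs: 108 in set 1 control, 27 in set 1 DKO, 107 in uninduced, 121 in set 2 DKO and 51 in induced. It is followed by miR-31-5p with 266 reads from 54 miRNAs, miR-23a-3p with 243 from 56, miR-21a-5p with 170 from 43, let-7b-5p with 152 from 39, miR-27b-3p with 116 from 27 and miR-141-3p with 114 from 19. The order was not that of the same miRNAs as ligated parts. miR-31-5p was ligated in 9.39% of all chimeric reads and miR-21a-5p in 7.08%, miR-27a-3p in 4.49% and let-7b-5p in 0.942%. miR-205-5p, ligated in 3.00% of reads, had 55 as a target. Genes that led as targets of other miRNAs were Mir27a (414 reads), Mir31 (334), Mir23a (255), Mir21a (199), Mir23b (161), Mirlet7b (158), Mir141 (119), Mir27b (116), Mir467b (85), Mir16-1 (82), Mirlet7e (78), Mir467e (69), Mirlet7c-1 (63), Mirlet7d (72) and Mir26b (60). The mature 3p arms of Mir27a and Mir27b are nearly the same, miR-16-5p and let-7c-5p each come from 2 genes, and Mir467b and Mir467e belong to a repetitive cluster inside Sfmbt2, so the division of reads within these groups is uncertain.

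**Figure D4:**
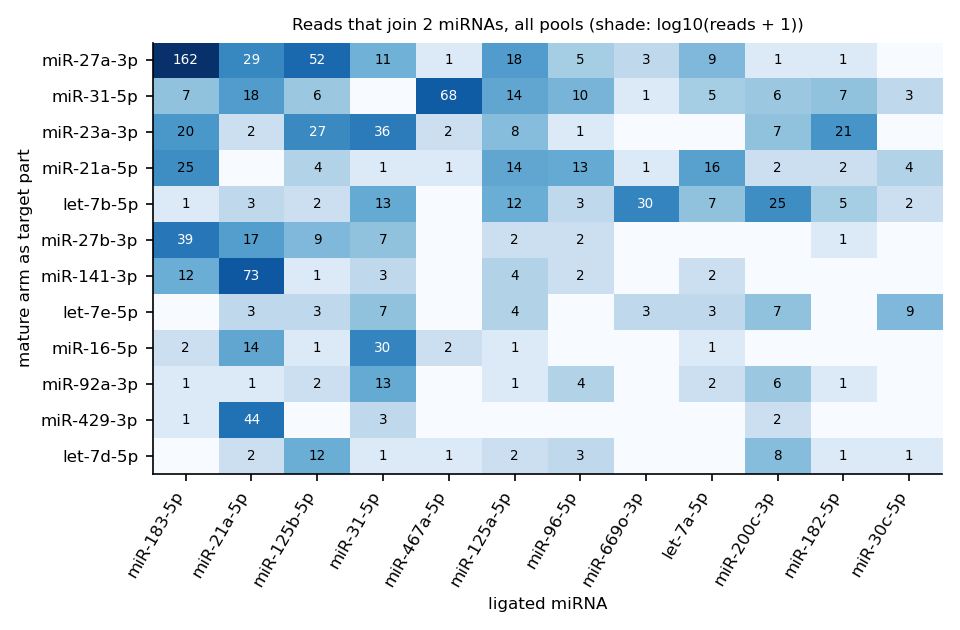
Number of reads, over all pools, that join the ligated miRNA of the column to the mature arm of the row, for the 12 arms and the 12 ligated miRNAs with the most such reads; shading is log10(reads + 1) and blank cells have no read. The 144 cells hold 1123 reads, 104 cells have at least 1, and the single largest is miR-183-5p with miR-27a-3p at 162.

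Among the ligated miRNAs, miR-183-5p led with 378 of the 4394 reads (8.60%, 7.79 to 9.47), although it was ligated in 1.49% of all chimeric reads, a ratio of 5.77 (5.19 to 6.39). miR-669o-3p (7.44), miR-125a-5p (4.86), miR-467a-5p (4.56), miR-96-5p (3.12) and miR-30c-5p (3.09) also had a larger share here than among all reads. miR-21a-5p (1.20) was near its overall share, with 373 reads, and miR-31-5p (0.691) and miR-205-5p (0.455) lay below theirs. miR-183-5p was ahead in the set 1 pools, where it made up 15.6% (control) and 11.7% (DKO) of reads of other miRNAs, against 6.82% in uninduced, 8.52% in set 2 DKO and 5.34% in induced.

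Single pairs made up much of this. miR-183-5p on miR-27a-3p had 162 reads, with 58 in set 1 control, 13 in set 1 DKO, 26 in uninduced, 50 in set 2 DKO and 15 in induced. The pair was seen in all 5 pools. Its 162 reads carried 118 different barcodes, and the reverse arrangement, miR-27a-3p ligated to miR-183-5p, had 2 reads. The same miRNA on the related miR-27b-3p had 39. miR-467a-5p on miR-31-5p had 68 reads, with 11 in set 1 control, 4 in set 1 DKO, 27 in uninduced, 14 in set 2 DKO and 12 in induced, and 0 in reverse. miR-125b-5p on miR-27a-3p had 52, of which 34 came from the uninduced pool, and 0 in reverse. miR-31-5p on miR-23a-3p had 36 and on miR-16-5p of Mir16-1 27. miR-96-5p had 34 reads on Mir31, 23 of them on miR-31-3p. miR-182-5p on miR-23a-3p had 21, with 8 in reverse. The pair miR-467a-5p and Mir467b, 77 reads, joins relatives of 1 cluster, and 32 of these reads came from the set 1 DKO pool.

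miR-21a-5p on miR-141-3p (73 reads) and on miR-429-3p (44) are pairs with members of the miR-200 family, and they followed the genotype. The first had 13 reads in set 1 control, 0 in set 1 DKO, 39 in uninduced, 1 in set 2 DKO and 20 in induced. The second had 15, 1, 14, 0 and 14 in the same order. Both DKO pools were thus at 1 read or none for each pair, and the control pools at 13 or more.

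The miR-200 genes as targets checked the labels. The 5 together had 69 reads in set 1 control, 4 in set 1 DKO, 136 in uninduced, 3 in set 2 DKO and 146 in induced. The ratio of DKO to control was 0.193 (0.0510 to 0.516) in set 1 and 0.0330 (0.00672 to 0.0985) in set 2. Each of these 7 DKO reads had a twin in a different pool of its set, identical in barcode, miRNA, strand and position. Leaving out such shared reads gave 65, 0, 129, 0 and 138, where 0 reads allows up to 0.00616% of the set 1 DKO pool and 0.00143% of the set 2 DKO pool.

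Between induced and uninduced the genes of the family differed as targets. Mir200b had 41 reads against 14 (ratio 2.19, 1.17 to 4.36) and Mir200a 20 against 0, at least 5.00-fold higher with the 0 taken as 3 reads. Mir429, of the same cluster, had 20 in each pool (0.749, 0.383 to 1.47). In the other cluster Mir141 had 41 against 75 (0.410, 0.273 to 0.607) and Mir200c 24 against 27 (0.666, 0.368 to 1.20). The miRNAs of Mir200b and Mir200a were also ligated more often outside miRNA genes, with ratios of 2.54 and 2.19, while those of Mir141 had 0.982 (0.952 to 1.01). For Mir429 and Mir200c this ratio was not taken, so ligation outside miRNA genes cannot be compared by cluster here. Of the 358 reads on the family 78 were own-locus reads. Its main products are 3p arms, which end their hairpins, and none of the own-locus reads of miR-200c-3p or miR-200b-3p ran on: 22 of 28 reads of miR-200c-3p lay on the other arm.

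**Figure D5:**
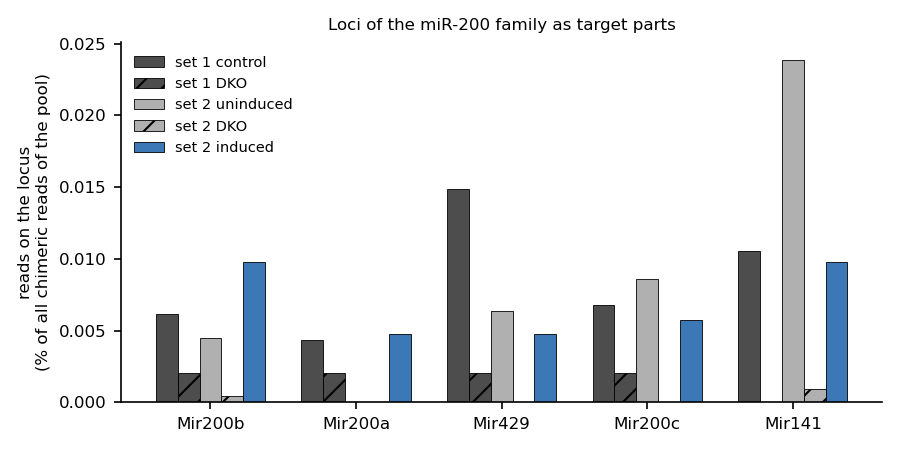
Reads with a miR-200 gene as target part, as a percentage of all chimeric reads of the pool, by gene; bars are the 5 pools, hatched for DKO, with no error bar because each group is 1 pool. Hatched bars are lower than the control of their set at each gene, except that Mir200a had 0 reads in both the uninduced and the set 2 DKO pools.

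For single genes a fold of at least 2 between pools, with at least 20 reads over both, was counted; the background is the share of all RefSeq genes that pass the same rule. In set 1, 28 miRNA genes had enough reads. Of these 2 were higher in DKO, where 8.27% of all genes were, and 11 lower (39.3%), where 17.8% of all genes were. The median ratio was 0.603 over the miRNA genes and 0.883 over all genes. In set 2, 18 of 54 were higher in DKO (33.3%; 9.75% of all genes) and 5 lower (11.3% of all genes), with medians of 1.39 and 1.02. Between induced and uninduced 2 of 51 were higher (3.2% of all genes) and 12 lower (23.5%; 2.35% of all genes), with medians of 0.639 and 1.03. With each combination of position, strand and miRNA counted once, 0, 8 and 7 genes passed in place of 13, 23 and 14.

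In set 1 the genes higher in DKO were Mir467b (34 reads against 10, ratio 11.3, 5.46 to 25.6) and Mir224 (13 against 8, 5.40, 2.07 to 15.0). Those with the lowest ratios were Mir27b (1 against 28, 0.119, 0.00290 to 0.718), Mir429 (1 against 24, 0.138, 0.00337 to 0.849), Mir96 (2 against 36, 0.185, 0.0215 to 0.717), Mir18 (9 against 103, 0.290, 0.129 to 0.573) and Mir20a (2 against 20, 0.332, 0.0377 to 1.37). The interval of Mir20a includes 1. For 9 of the 11 lower genes the own miRNA, ligated to RNAs outside miRNA genes, had a higher share in DKO than in control; let-7b-5p and its partner arm had a ratio of 1.88 and those of Mir27b 1.61. The exceptions were Mir429 (0.0347) and Mir32 (0.912). How many of all miRNAs had a higher share in DKO was not counted, so the 9 genes have no background share beside them.

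In set 2 Mir196b, from the Hoxa cluster, had 29 reads in DKO and 0 in uninduced, at least 14.5-fold higher with the 0 taken as 3 reads. Its miRNAs were ligated to other RNAs in 365 reads of the DKO pool and 6 of the uninduced pool. Mirlet7c-1 had 44 against 3 (21.9, 7.03 to 110), of which 21 and 2 were reads of miR-30c-5p. Mir135b had 22 against 6 (5.48), Mir27b 58 against 17 (5.10, 2.93 to 9.35) and Mir23b 72 against 29 (3.71, 2.38 to 5.93). Of the 18 higher genes, 13 also had a ratio above 1 for their miRNAs ligated elsewhere, for example Mir181a-1 (7.72), Mir23b (3.47) and Mir27b (3.03). The share of all miRNAs with a ratio above 1 was not counted, so these 13 have no background to be read against. Lower were Mir200c (0 against 27, at least 6.02-fold lower), Mir429 (0 against 20, at least 4.46-fold lower), Mir141 (2 against 75, 0.0399, 0.00474 to 0.149), Mir467e (8 against 35, 0.342) and Mir501 (27 against 89, 0.454, 0.283 to 0.705). Mir501 stood apart from the miR-200 genes in that its miRNAs, ligated elsewhere, had a ratio of 1.30 (0.928 to 1.83).

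Most genes with enough reads in both sets did not pass in both: 10 passed in neither, 6 were lower in set 1 only and 4 higher in set 2 only. Of the genes that passed in both sets, 3 went the same way: Mir224 and Mir467b were higher in DKO and Mir429 lower. How often all RefSeq genes go the same or the opposite way was not counted, so these numbers have no background. For 4 others, Mir18, Mirlet7b, Mir27b and Mir425, the direction was opposite, lower in set 1 and higher in set 2. In Mirlet7b both kinds of read took part: own-locus reads were 7 against 67 in set 1 and 58 against 12 in set 2, and reads of other miRNAs 4 against 24 and 50 against 45. Mir27b had almost only reads of other miRNAs, 1 against 26 in set 1 and 58 against 17 in set 2, and Mir18 and Mir425 mostly own-locus reads.

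Between induced and uninduced the lowest ratios were those of Mir203 (7 reads against 21, 0.250, 0.0897 to 0.610), Mir16-1 (17 against 40, 0.318), Mir205 (8 against 18, 0.333, 0.125 to 0.805), Mir26b (10 against 21, 0.357) and Mir17 (8 against 16, 0.375). The other 7 lower genes lay between Mir23a (0.379) and Mir92-1 (0.432), among them Mir141 (0.410) and Mir27a (0.420). In Mir27a the difference lay in reads of other miRNAs, 51 against 107, while own-locus reads numbered 14 against 9, and in Mir23a likewise, with 40 against 75 and 0 against 4. The same miRNAs, ligated elsewhere, had a median ratio of 0.968 over the 12 lower genes. For 8 of the 12 the ratio lay below 1, the same way as the genes as targets. How many of all miRNAs had a ratio below 1 was not counted, so these 8 have no background share beside them. Among these 8, the intervals of Mir203 (0.699, 0.669 to 0.729) and Mir205 (0.875, 0.850 to 0.902) lay wholly below 1. The same held for Mir27a (0.951, 0.929 to 0.973) and Mir23a (0.9545), while the intervals of the others included 1. Mir205 had 19 reads in set 1 control, 0 in set 1 DKO, 18 in uninduced, 43 in set 2 DKO and 8 in induced, and Mir203 5, 1, 21, 12 and 7.

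The proteins that make and use miRNAs are themselves targets, and were taken as a list for comparison. Of 17 genes 16 had reads, led by Tnrc6a (1284), Tnrc6b (660), Ago2 (474) and Dicer1 (471), which encode GW182 scaffold proteins, the slicing Argonaute and the enzyme that cuts the loop; Lin28a had none. Together they held 0.296% of the set 1 control pool, 0.253% of set 1 DKO, 0.342% of uninduced, 0.305% of set 2 DKO and 0.367% of induced, so that the induced pool, lowest for miRNA genes, was highest for this list. At the rule for folds, 0 of 9 were higher and 2 lower in set 1 (8.27% and 17.8% of all genes), 2 of 12 higher and 1 lower in set 2 (9.75% and 11.3% of all genes), and 0 of 12 higher and 0 lower between induced and uninduced (3.2% and 2.35% of all genes). Of 15 host transcripts of miRNAs, 13 were in the gene table and 9 had reads outside their miRNA genes, most on Mir100hg (302), host of miR-100 and let-7a-2, and Sfmbt2 (295). Mir100hg had 120 reads in uninduced, 147 in induced, 22 in set 2 DKO, 13 in set 1 control and 0 in set 1 DKO.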

How the data were processed

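CLEAR-CLIP, which ligates miRNAs to their targets in an Argonaute 2 precipitate, was done on 18 libraries of cultured mouse keratinocytes. The tools were Novoalign, cutadapt and bedtools on mm10, per the submitters' processing notes; versions and settings are not given in the sources used here. The authors deposited 1 file per group that lists reads, not counts or signals (unit: other). An entry gives, for 1 chimeric read, where the target part lies, its strand, a barcode and the name of the miRNA. Within a file no 2 entries are alike in all of these, so copies were already collapsed. Target parts have 20 to 124 bases. In set 1, 8.53% of control and 4.46% of DKO read names are marked, with target parts of 20 to 24 bases; the unmarked ones have at least 22.

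Reads were assigned by midpoint to 1 of 1228 RefSeq miRNA genes (GRCm38.p6, coordinates from 1); where genes overlap, the gene on the strand of the read, then the gene of the ligated miRNA, was taken. Own-locus reads were matched by miRNA name, copies of a hairpin included. Hairpins matched 1005 genes, and 1512 of 1797 miRNA names have a mature sequence. Relatives share a number or seed (bases 2 to 8); neighbours lie within 10 kb. Shares have exact Clopper-Pearson 95% intervals and ratios conditional exact ones (Python 3.11.15, SciPy 1.17.1). A count of 0 was taken to allow 3 reads. Assignment was tested on simulated reads. On simulated counts with genes changed 4-fold, the rule of 2-fold recovered 95.0% of changed genes for set 1 (2008 genes) while 7.5% of unchanged genes passed, 98.5% and 3.7% for set 2 DKO (4300 genes), and 97.5% and 3.1% for induced against uninduced (5132 genes). These counts were independent Poisson draws over all genes, without the repeated reads seen at miRNA genes. The rates may therefore not hold for miRNA genes.

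Named genes are the 15 leading genes by mean share among own-locus reads and among reads of other miRNAs, the 15 leading pairs, the 5 largest folds per direction and comparison, and Mir205, Mir203, Mir31, Mir21a and the miR-200 genes; others named for their position or share were chosen after their values were seen. The lists and members were chosen with earlier results of these data known. The planned tests between libraries were not possible because the deposited files pool them. Alternatives were other ways to count, to assign and to define own-locus reads.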

Additional observations from a re-analysis of the deposited data

Results flagged for a closer look

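The DKO pool differed from its control in opposite directions in the 2 sets, and this difference between the sets was not tested, since each group is 1 pool. The share of reads on miRNA genes had a ratio of 0.731 in set 1 and 1.33 in set 2. Own-locus reads had ratios of 0.656 and 1.36, and those that run on 0.635 and 1.57. For reads of other miRNAs they were 0.913, with an interval that includes 1, and 1.30.

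At the level of genes, Mir18 had ratios of 0.290 in set 1 and 2.27 in set 2, Mir27b 0.119 and 5.10, Mir425 0.453 and 2.99, and Mirlet7b 0.402 and 2.83. For Mir425 the interval in set 1 (0.0868 to 1.51) includes 1.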

How the results depend on the processing

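No paired analysis was possible because the deposited files pool the libraries of a group and name none of them, which also kept any library from being left out. Each count of 0 or of few reads limits what can be seen, most in the set 1 DKO pool.

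Mir21a remained the leading gene of own-locus reads and Mir27a that of reads of other miRNAs with repeats counted once, without shared reads, with other rules of overlap and on the strand of the gene alone. Genes were ranked here by their mean share over the pools, so a small pool weighs as much as a large one. By this rank Mir467b led the reads of other miRNAs without marked names and with target parts over 24 bases. Mirlet7f-2 led own-locus reads among target parts of 20 to 24 bases. Mir467b had 34 of its 85 reads in the set 1 DKO pool. By number of reads, Mir27a still held 7.64% of the reads of other miRNAs without marked names. Counting each combination of position, strand and miRNA once, which removes repeats at fixed cut sites as well as copies, gave 0.571% of reads on miRNA genes, a set 1 ratio of 0.981, 42.3% own-locus reads, shares of 7.64% for Mir21a and 5.45% for Mir27a, and 0, 8 and 7 genes past the fold in set 1 DKO, set 2 DKO and induced. Without reads shared within a set the share on miRNA genes was 0.899%, own-locus reads 56.3% and Mir21a 20.7%. Any overlap gave 1.04%, 62.8% and 23.4%, and target parts wholly inside the gene 0.942%. On the strand of the gene alone the values were 0.896%, a set 1 ratio of 0.646, 63.4% own-locus reads and 10.9% for Mir27a. Without Mir21a they were 0.803% and 54.6%. Own-locus reads defined by sequence were 58.0%. Without marked names the share on miRNA genes was 0.892%, and without the 9 miRNAs overrepresented in set 1 it was 1.07%, with a set 1 ratio of 0.632. A minimum of 50 reads left 3, 9 and 6 genes past the fold, and a fold of 3 left 7, 11 and 4.

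Chosen after seeing the data, leaving out marked names for the other results gave 64.0% own-locus reads, 7.64% for Mir27a and 8 genes past the fold in set 1. Target parts over 24 bases gave 0.576% on miRNA genes, ratios of 1.46 (set 2 DKO) and 0.720 (induced), 88.6% own-locus reads, 28.1% for Mir21a, 0% for Mir27a and 8, 13 and 3 genes. Those of 20 to 24 bases gave 4.99%, ratios of 1.08 (set 1, the direction turned) and 1.56 (set 2 DKO), 28.1% own-locus reads, 17.1% for Mir21a, 11.2% for Mir27a and 4 genes in set 1.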
